A study of Homo sapiens with 9 samples.

Results

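The Arp2/3 complex genes are the 9 rows of the deposited table whose symbol is ACTR2, ACTR3, ARPC1A, ARPC1B, ARPC2, ARPC3, ARPC4, ARPC5 or ARPC5L, out of 61806 genes. The complex was chosen by a measured value, since the ARPC1A transcript was higher than control in one knockdown and lower in the other in these same libraries, and the question was whether the other subunits followed it. The ARPC1A values are therefore given as a description with no test, and ARPC1A is left out of every count of subunits. All 9 members were among the 13562 genes that passed the filter on low counts.

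Polyadenylated RNA of 786-O, a human clear cell renal carcinoma line, was sequenced in 9 libraries. Of these, 3 were labelled TRIM28 knockdown, treated with TRIM28 siRNA. Another 3 were labelled PARP1 knockdown, treated with PARP1 siRNA. The remaining 3 were controls of wild type genotype, labelled as treated with a negative control siRNA. The labels call the same reagents shRNA in another field and name parental cells where the controls are meant in another. Neither the kind of reagent nor the transfection of the controls is therefore certain, and if the controls were untransfected each contrast with control would include the transfection. TRIM28 is a chromatin corepressor and PARP1 a poly(ADP-ribose) polymerase active at DNA breaks. No label says that the replicates of a group were separate cultures. A p-value here sets a difference between groups against the spread among these 9 libraries, which may be technical. All libraries carry 1 batch label.

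Depth was 11963110 to 20224374 counted reads a library, and each of the 9 members had between 385 and 10365 reads in every library. The targets matched the labels. TRIM28 averaged 52.2 ± 7.33 CPM (read counts scaled to library size by TMM factors) in TRIM28 knockdown, 429.8 ± 9.96 in PARP1 knockdown and 346 ± 33.0 in control (SD, n = 3 each), and PARP1 averaged 93.8 ± 0.556, 5.52 ± 1.19 and 177 ± 23.7 CPM in the same order. PARP1 was thus also lower in TRIM28 knockdown than in control (log2 -0.92 ± 0.14, adjusted p = 3.61e-05, and -0.49 with the trends described next removed). TRIM28 was higher in PARP1 knockdown than in control (log2 0.31, adjusted p = 0.0433), a call that ended with those trends removed (-0.22) and on library totals (-0.01). The libraries differed in how counts followed exon length and GC content: the log2 slope per doubling of length was between -0.0244 and -0.00085 in TRIM28 knockdown, between -0.167 and -0.0968 in PARP1 knockdown and between 0.0725 and 0.203 in control. The log2 slope per 10% of GC was between -0.104 and 0.0649 in TRIM28 knockdown, between 0.196 and 0.283 in PARP1 knockdown and between -0.348 and -0.0856 in control. Control replicate 3 had the lowest length slope of the control libraries and lay nearer the knockdowns. Its GC slope of -0.0856 lay within the range of TRIM28 knockdown. Counts and named genes are therefore given also from a fit with each library's length and GC trends removed, where that changed a call, turned a direction or moved a value by over 1.5 times. Of the renal and 786-O markers all 11 passed the filter, with a summed level of 1430 to 1570 FPKM (the deposited values per exon length and library size) in TRIM28 knockdown, 949 to 1410 FPKM in PARP1 knockdown and 1490 to 1520 FPKM in control. The 5 leukocyte markers summed to 0.29 to 0.45, 0.16 to 0.24 and 0.15 to 0.3 FPKM in the same order, with PTPRC, CD3E and MS4A1 at 0 in every library and CORO1A, also one of the actin genes below, at most at 0.3 FPKM. Endothelial and fibroblast markers summed to at most 0.46 FPKM in any library. In bulk libraries, fewer cells with a transcript and less of it per cell cannot be told apart.

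The Arp2/3 complex binds the side of an existing actin filament and starts a new filament as a branch, which builds the networks that push lamellipodia and move endosomes. ACTR2 (Arp2) and ACTR3 (Arp3) resemble actin and form the first subunits of the new filament. ARPC2 and ARPC4 make the core that holds the complex on the mother filament, ARPC3 joins that core to Arp3, and ARPC1 and ARPC5 complete it. ARPC1 exists as the paralogues ARPC1A and ARPC1B and ARPC5 as ARPC5 and ARPC5L, and a complex holds one of each pair. The complex is inactive until a nucleation promoting factor such as N-WASP or WAVE binds it. In the nucleus it has been tied to the movement of DNA breaks during repair.

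Coordinates are those of the deposited table, on GRCh38. ARPC1A (ENSG00000241685, chr7:99325898-99366262) and ARPC1B (ENSG00000130429, chr7:99374249-99394816) are neighbours on the plus strand, with 7986 bases between them. ACTR2 (ENSG00000138071, chr2:65227788-65271253), ACTR3 (ENSG00000115091, chr2:113890063-113962596) and ARPC2 (ENSG00000163466, chr2:218217141-218254356) are on the plus strand of chromosome 2 far from each other. ARPC3 (ENSG00000111229, chr12:110434823-110450422) and ARPC5 (ENSG00000162704, chr1:183620846-183635783) are on minus strands, while ARPC4 (ENSG00000241553, chr3:9792495-9807101) and ARPC5L (ENSG00000136950, chr9:124862130-124877733) are on plus strands. The annotation deposited with the table places 9 of 9 in the Arp2/3 complex, 8 of 9 in the nucleus and 7 of 9 at sites of double-strand breaks, ARPC1B and ARPC5L being without the last term.

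The promoters of 3 members are shown because ACTR2 and ACTR3 were lower in both knockdowns and ARPC1A was the subunit whose direction differed. Each runs from 250 bases before to 50 after the RefSeq gene start on the plus strand of GRCh38.p14, at chr2:65227581-65227880 for ACTR2, chr2:113889839-113890138 for ACTR3 and chr7:99325648-99325947 for ARPC1A. Of the 9 members, 8 had a promoter in this RefSeq table. Capitals mark matches, on either strand, to the motifs searched, which were the TATA box TATAAA, the CCAAT box, the GC box GGGCGG, the ETS core CCGGAAG and the CArG box bound by serum response factor.
ACTR2: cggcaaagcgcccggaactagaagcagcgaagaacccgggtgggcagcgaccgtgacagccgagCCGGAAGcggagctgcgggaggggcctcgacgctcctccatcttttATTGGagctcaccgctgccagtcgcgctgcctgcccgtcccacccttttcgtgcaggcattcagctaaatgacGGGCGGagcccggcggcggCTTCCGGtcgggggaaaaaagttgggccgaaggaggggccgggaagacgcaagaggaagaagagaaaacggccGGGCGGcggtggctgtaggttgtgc
ACTR3: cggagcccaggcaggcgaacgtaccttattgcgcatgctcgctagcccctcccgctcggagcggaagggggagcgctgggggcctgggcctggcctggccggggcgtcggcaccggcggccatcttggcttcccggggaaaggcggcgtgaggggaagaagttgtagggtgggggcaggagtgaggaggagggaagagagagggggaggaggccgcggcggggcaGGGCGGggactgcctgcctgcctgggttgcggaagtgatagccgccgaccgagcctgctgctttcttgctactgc
ARPC1A: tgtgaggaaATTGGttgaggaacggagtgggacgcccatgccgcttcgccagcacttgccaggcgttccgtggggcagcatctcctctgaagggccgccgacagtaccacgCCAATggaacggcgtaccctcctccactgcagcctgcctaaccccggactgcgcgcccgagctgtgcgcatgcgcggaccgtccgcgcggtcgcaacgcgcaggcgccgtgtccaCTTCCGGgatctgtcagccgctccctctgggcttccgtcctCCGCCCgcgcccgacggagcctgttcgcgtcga
The ACTR2 window held 1 CCAAT box, 2 GC boxes and 2 ETS cores, and that of ARPC1A 2 CCAAT boxes, 1 GC box and 1 ETS core, while ACTR3 held 1 GC box. No match overlapped another, and none of the 3 windows held a TATA or CArG match. Among 35116 RefSeq promoters of the same length, 34.6% held a CCAAT box, 45.0% a GC box, 10.3% an ETS core, 11.5% a TATA box and 1.29% a CArG box. The matches are letters in a window and describe no binding.

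The other subunits did not move as a unit with ARPC1A. Against control, TRIM28 knockdown had 1 of the other 8 subunits higher (ARPC4) and 2 lower (ACTR2 and ACTR3), with 5 not passing an adjusted p of 0.05, where 10.3% of all tested genes were higher and 17.5% lower. In PARP1 knockdown 4 of 8 were higher (ARPC1B, ARPC3, ARPC4 and ARPC5L) and 2 lower (ACTR2 and ACTR3), against a background of 27.1% of genes higher and 32.2% lower. Between the knockdowns, TRIM28 knockdown had 1 of 8 higher than PARP1 knockdown (ACTR3) and 1 lower (ARPC1B), where 13.2% and 11.9% of genes were. The median log2 fold change of the 8 was 0.31 in TRIM28 knockdown and 0.34 in PARP1 knockdown, beside -0.02 and -0.07 over all tested genes, and between the knockdowns it was -0.03, beside 0.03. With the trends removed these medians of the 8 were 0.25, 0.48 and -0.18. On library totals they were 0.16, 0.01 and 0.14, where the medians of all tested genes were -0.18, -0.39 and 0.20. Both knockdowns were set against the same 3 control libraries, so their values stand side by side and are not independent. The count of 1 higher in TRIM28 knockdown rested on single libraries and settings: it was 0 without control replicate 1 and 5 without control replicate 3, without PARP1 knockdown replicate 1 or without PARP1 knockdown replicate 3, where ARPC1B, ARPC2, ARPC3 and ARPC5L joined ARPC4. The share of all tested genes higher in TRIM28 knockdown moved with it, to 2.31%, 15.5%, 14.8% and 13.2% in these 4 fits in the same order. Between the knockdowns the count lower was 2 without control replicate 3 and 3 without PARP1 knockdown replicate 1, where 13.5% and 16.1% of all tested genes were lower. The count higher in TRIM28 knockdown was 4 by DESeq2 and 3 with the length and GC trends removed, where the count lower was 1. Of all tested genes 14.0% were higher by DESeq2, and 10.9% were higher and 10.5% lower with the trends removed. In PARP1 knockdown ARPC2 and ARPC5 joined the subunits higher with the trends removed (adjusted p = 7.65e-06 and 0.000608). There 23.9% of all tested genes were higher and 22.6% lower.

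**Figure D1:**
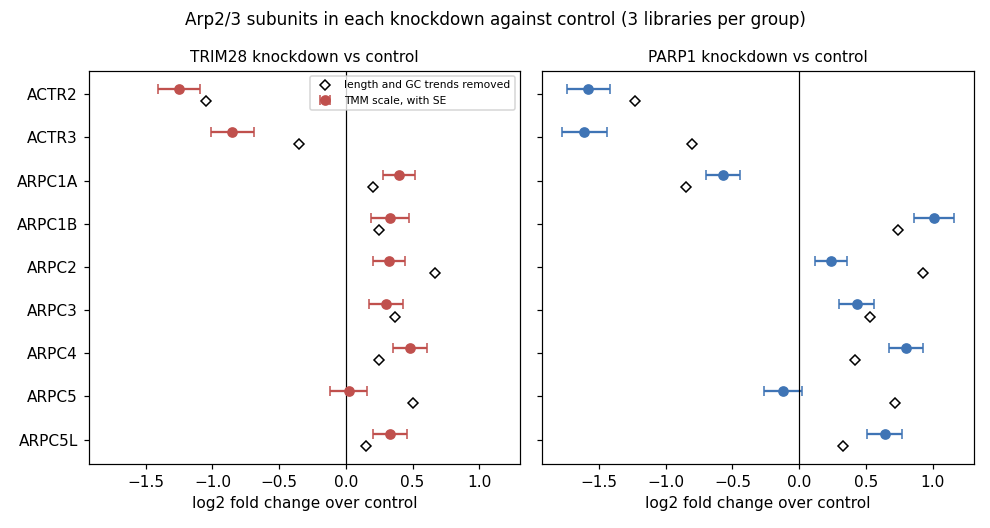
Log2 fold change over control of each subunit (vertical axis) in TRIM28 knockdown (left) and PARP1 knockdown (right), with filled points and SE bars on the TMM scale and open diamonds after removal of each library's length and GC trends. ARPC1A stands at 0.40 in TRIM28 knockdown and -0.57 in PARP1 knockdown, while ACTR2 and ACTR3 are below 0 on both sides and ARPC1B and ARPC4 above 0 on both sides.

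ARPC1A and ARPC1B encode alternative forms of the WD-repeat subunit that contacts nucleation promoting factors. ARPC1A had 77.0, 78.3 and 75.8 CPM in TRIM28 knockdown, 39.8, 40.3 and 38.1 CPM in PARP1 knockdown and 55.0, 57.6 and 62.8 CPM in control. The groups did not overlap, with TRIM28 knockdown highest and PARP1 knockdown lowest, as the choice of the gene fixed. Its log2 fold change was 0.40 ± 0.12 (SE) in TRIM28 knockdown and -0.57 ± 0.13 in PARP1 knockdown, and 0.20 and -0.85 with the length and GC trends removed.

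ARPC1B, its neighbour and paralogue, had 88.0, 88.2 and 96.9 CPM in TRIM28 knockdown, 118.5, 142 and 174.5 CPM in PARP1 knockdown and 65.0, 68.6 and 83.1 CPM in control. All knockdown libraries of both kinds lay above all controls, and PARP1 knockdown lay above TRIM28 knockdown. The order of the knockdowns was thus the reverse of that in ARPC1A, while in TRIM28 knockdown both paralogues lay above control. ARPC1B rose 2.01-fold in PARP1 knockdown (log2 1.01 ± 0.15, Benjamini-Hochberg adjusted p = 2.19e-06 in the quasi-likelihood fit of edgeR). In TRIM28 knockdown its log2 fold change of 0.33 ± 0.14 did not pass (adjusted p = 0.0841), and without control replicate 3 it was 0.47 and passed (adjusted p = 0.0252). TRIM28 knockdown was lower than PARP1 knockdown (log2 -0.67 ± 0.14, adjusted p = 0.00223). PDAP1 overlaps ARPC1B on the opposite strand and had 4731 to 9393 reads per library. The genes share 100 of 3988 ARPC1B exon bases in GENCODE v29. The deposited table gives ARPC1B 5581 exon bases, so the overlap in the annotation that was counted may differ. The log2 fold changes of PDAP1 were 0.22 in TRIM28 knockdown and 0.23 in PARP1 knockdown, and its part in the counts of ARPC1B was not tested. A gene without a symbol, which had 5 to 15 reads per library, overlaps both ARPC1 genes on their strand. It shares 1198 of 2053 ARPC1A exon bases and 1292 of 3988 ARPC1B exon bases. How this sharing bears on the counts of either ARPC1 gene was not tested.

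Per exon length, ARPC1A made up 70.3%, 70.6% and 67.9% of the summed ARPC1A and ARPC1B FPKM in TRIM28 knockdown, 47.6%, 43.3% and 37.1% in PARP1 knockdown and 69.6%, 69.4% and 67.1% in control. TRIM28 knockdown and control overlapped in this share, and the PARP1 knockdown libraries all lay below both. In PARP1 knockdown ARPC1B was the more abundant paralogue in FPKM in every library. These shares contain ARPC1A and are given with no test.

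The actin-related subunits ACTR2 and ACTR3 fell in both knockdowns. ACTR2 had 66.2, 59.4 and 56.3 CPM in TRIM28 knockdown, 48.6, 50.4 and 45.9 CPM in PARP1 knockdown and 170.0, 162 and 100.3 CPM in control. Every knockdown library was below every control library, and control replicate 3 was the lowest control. ACTR2 fell 2.38-fold in TRIM28 knockdown (log2 -1.25 ± 0.16, adjusted p = 4.15e-06) and 2.98-fold in PARP1 knockdown (log2 -1.58 ± 0.16, adjusted p = 1.59e-08). Without control replicate 3 the log2 values were -1.43 and -1.74, and with the length and GC trends removed they were -1.05 and -1.23. The difference between the knockdowns was 0.33 ± 0.16 and did not pass (adjusted p = 0.135), and was 0.18 with the trends removed.

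ACTR3 had 101, 85.6 and 83.8 CPM in TRIM28 knockdown, 57.1, 62.3 and 40.2 CPM in PARP1 knockdown and 180.4, 184 and 123.5 CPM in control. The groups did not overlap, with PARP1 knockdown lowest. ACTR3 fell 1.8-fold in TRIM28 knockdown (log2 -0.85 ± 0.16, adjusted p = 0.00044) and 3.05-fold in PARP1 knockdown (log2 -1.61 ± 0.17, adjusted p = 2.01e-08). It was higher in TRIM28 knockdown than in PARP1 knockdown (log2 0.76 ± 0.16, adjusted p = 0.00234). ACTR3 has the longest exon sequence of the members, 11946 bases, and the lowest GC content, 35.7%. With the length and GC trends removed its log2 values were -0.35 in TRIM28 knockdown, where the call ended (adjusted p = 0.0789), -0.80 in PARP1 knockdown (adjusted p = 0.000156) and 0.45 between the knockdowns (adjusted p = 0.0409).

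The ACTR3 paralogues outside the 9 members were expressed far below it. ACTR3B averaged 1.56 ± 0.179 FPKM in TRIM28 knockdown, 1.26 ± 0.417 in PARP1 knockdown and 2.31 ± 0.238 in control, and ACTR3C was below 1 FPKM in every library. ACTR3B fell in PARP1 knockdown (log2 -0.55 ± 0.20, adjusted p = 0.0186), a call that ended with the trends removed (0.12, adjusted p = 0.622), and did not pass in TRIM28 knockdown (-0.41, adjusted p = 0.116, and -0.04 with the trends removed). ACTR3C did not pass in TRIM28 knockdown (0.06 ± 0.24, adjusted p = 0.87, with 0.43 without the trends and -0.09 on library totals) or PARP1 knockdown (0.52 ± 0.24, adjusted p = 0.0584), and passed in PARP1 knockdown with the trends removed (1.22, adjusted p = 0.000158). LRRC61, on the opposite strand, shares 390 of 6460 ACTR3C exon bases in GENCODE v29 and had 571 to 955 reads per library, against 46 to 86 for ACTR3C. Its log2 fold changes were 0.25 ± 0.14 in TRIM28 knockdown and 0.80 ± 0.14 in PARP1 knockdown. The part of LRRC61 in the ACTR3C values was not tested. Of 15 rows named as pseudogenes of the members or of ACTR3B, 12 had no read in any library, and the only one tested, ARPC3P3, had 36 to 101 reads.

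**Figure D2:**
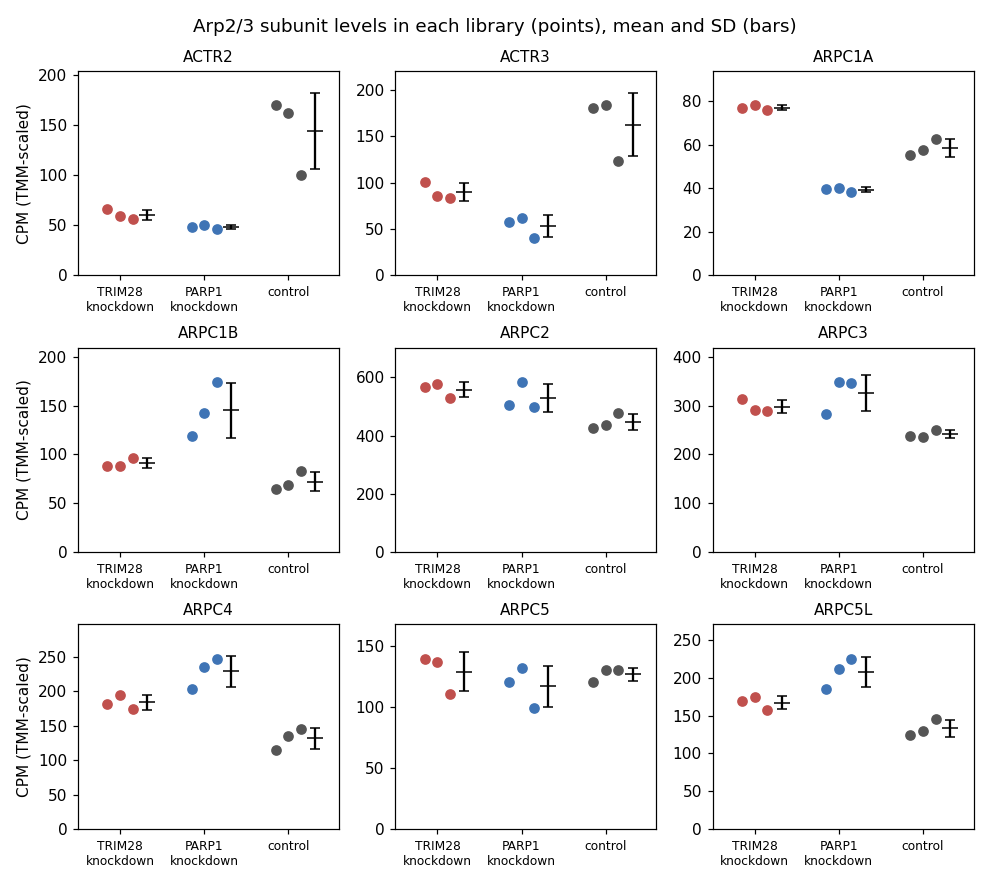
TMM-scaled CPM of each subunit (vertical axis, from 0) in every library of TRIM28 knockdown, PARP1 knockdown and control, with the mean and SD of 3 libraries beside the points. ACTR2 and ACTR3 are lower in all knockdown libraries than in all controls, ARPC1A is split by knockdown, and ARPC5 overlaps in all groups.

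ARPC2 and ARPC4, the core pair, had means above control in both knockdowns on the TMM scale, with ARPC2 in PARP1 knockdown turning to a log2 fold change of -0.08 on library totals. ARPC4 had 182, 195 and 174 CPM in TRIM28 knockdown, 203, 235 and 247 CPM in PARP1 knockdown and 115, 134 and 145.5 CPM in control. No library of one group reached into another, and PARP1 knockdown was highest. ARPC4 rose in TRIM28 knockdown (log2 0.48 ± 0.13, adjusted p = 0.00898) and in PARP1 knockdown (log2 0.80 ± 0.13, adjusted p = 1.43e-05). The call in TRIM28 knockdown ended without control replicate 1 (0.41, adjusted p = 0.074) and with the length and GC trends removed (0.25, adjusted p = 0.113), where PARP1 knockdown stood at 0.42 (adjusted p = 0.00419).

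ARPC4 overlaps TADA3, a subunit of histone acetyltransferase complexes, on the opposite strand. They share 479 of 3608 ARPC4 exon bases in GENCODE v29. The deposited table gives ARPC4 2607 exon bases, so the overlap in the annotation that was counted may differ. TADA3, with 1935 to 2716 reads per library, had log2 fold changes of 0.53 ± 0.15 in TRIM28 knockdown and 1.04 ± 0.15 in PARP1 knockdown. The library kit keeps strand, but whether the counting used strand is not stated, so reads of ARPC4 and TADA3 cannot be told apart where they overlap, and the part of TADA3 in the ARPC4 values was not tested. ARPC4-TTLL3, on the strand of ARPC4, shares 541 of 3608 ARPC4 exon bases and had 4 to 23 reads per library. Its part was not tested either.

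ARPC2 had 566, 577 and 528 CPM in TRIM28 knockdown, 505, 585 and 499 CPM in PARP1 knockdown and 427, 436 and 478 CPM in control. Both knockdowns lay above control without overlap and overlapped each other. The log2 fold changes of 0.32 ± 0.12 in TRIM28 knockdown (adjusted p = 0.058) and 0.24 ± 0.12 in PARP1 knockdown (adjusted p = 0.0937) did not pass. In PARP1 knockdown it passed without control replicate 3 (0.34) or without PARP1 knockdown replicate 1 (0.28). With the length and GC trends removed ARPC2 passed in both, at 0.67 (adjusted p = 0.00115) and 0.93 (adjusted p = 7.65e-06).

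ARPC3, which links the core to Arp3, had 313, 291 and 289 CPM in TRIM28 knockdown, 283, 349 and 345 CPM in PARP1 knockdown and 238, 236 and 250.3 CPM in control. All knockdown libraries were above all controls, and the knockdowns overlapped. ARPC3 rose in PARP1 knockdown (log2 0.43 ± 0.13, adjusted p = 0.00481) and did not pass in TRIM28 knockdown (log2 0.30 ± 0.13, adjusted p = 0.0732). The call in PARP1 knockdown ended on library totals, where the value was 0.10, and with the length trend alone removed (0.27, adjusted p = 0.0566), and held with both trends removed (0.53, adjusted p = 0.000277). In TRIM28 knockdown ARPC3 then passed (0.37, adjusted p = 0.0137).

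ARPC5 and ARPC5L encode alternative forms of the smallest subunit. ARPC5 had 139.8, 137 and 111 CPM in TRIM28 knockdown, 121, 132 and 98.9 CPM in PARP1 knockdown and 121, 130.0 and 130.3 CPM in control. The 3 groups overlapped. Its log2 fold changes of 0.02 ± 0.14 (adjusted p = 0.92) and -0.12 ± 0.14 (adjusted p = 0.476) had the signs of ARPC1A, the only pair among the other 8 that did, and neither passed. Their signs depended on the setting. On library totals they were -0.14 and -0.44, the value in PARP1 knockdown passing (adjusted p = 0.0121), and with the length and GC trends removed 0.50 (adjusted p = 0.0207) and 0.72 (adjusted p = 0.000608). ARPC5 has 10650 bases of exon.

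ARPC5L had 169, 175 and 158 CPM in TRIM28 knockdown, 185.5, 212 and 226 CPM in PARP1 knockdown and 124, 130.3 and 146 CPM in control. The groups did not overlap, and PARP1 knockdown was highest. ARPC5L rose in PARP1 knockdown (log2 0.64 ± 0.13, adjusted p = 0.000149, and 0.33 with the trends removed, adjusted p = 0.0197). In TRIM28 knockdown its value of 0.33 ± 0.13 did not pass (adjusted p = 0.0592) and was 0.15 with the trends removed.

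Within the ARPC5 pair, ARPC5L made up 79.3% ± 1.37 of the summed FPKM in TRIM28 knockdown, 83.9% ± 2.82 in PARP1 knockdown and 75.5% ± 1.12 in control (SD, n = 3 each). The libraries of the 3 groups did not overlap in this share. It was 3.77 percentage points higher in TRIM28 knockdown than in control, 8.32 points higher in PARP1 knockdown than in control, and TRIM28 knockdown minus PARP1 knockdown was -4.55 points. Each exact two-sided permutation test gave p = 0.1, the smallest that 3 libraries against 3 allow, so no difference could pass 0.05. ARPC5 and ARPC5L differ in exon length, 10650 against 3610 bases, and the length trend that differs between the groups enters this share. With the length and GC trends removed the direction within the pair turned: ARPC5 stood at 0.50 and ARPC5L at 0.15 in TRIM28 knockdown, and at 0.72 and 0.33 in PARP1 knockdown, so ARPC5L was lower relative to ARPC5 in both knockdowns.

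**Figure D3:**
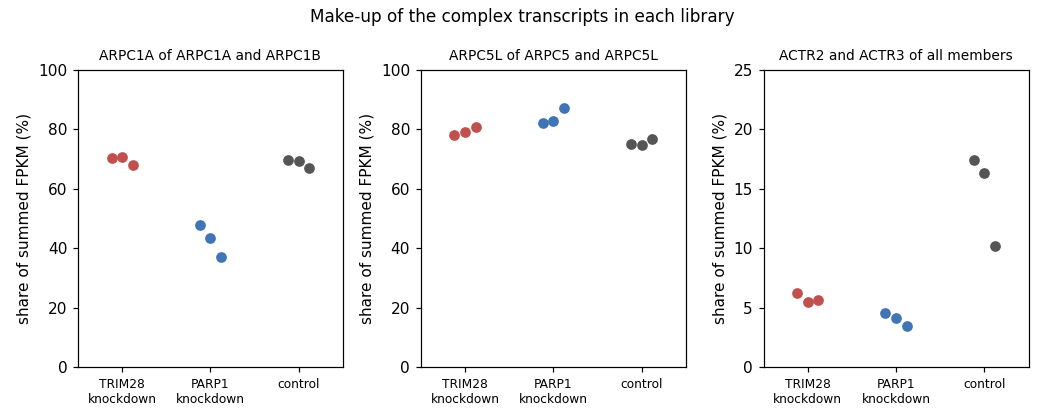
Share of summed FPKM (percent) in each library, for ARPC1A within the ARPC1 pair, ARPC5L within the ARPC5 pair and ACTR2 with ACTR3 within all 9 members, with TRIM28 knockdown, PARP1 knockdown and control side by side. The ARPC1A share is lowest in PARP1 knockdown (37.1% to 47.6%), and the joint ACTR2 and ACTR3 share is 5.51% to 6.24% in TRIM28 knockdown, 3.49% to 4.56% in PARP1 knockdown and 10.2% to 17.4% in control. The length and GC trends were not removed from these shares.

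Per exon length, ARPC3 was the most abundant member in every group, at 98.5 ± 5.55 FPKM in TRIM28 knockdown, 95.4 ± 4.65 FPKM in PARP1 knockdown and 89.1 ± 1.21 FPKM in control (SD, n = 3 each). ARPC2, ARPC4 and ARPC5L followed, with ARPC4 above ARPC2 only in the PARP1 knockdown means, where the libraries of the pair overlapped. ACTR2 ranked 7 of the 9 at 15.0 ± 1.36 FPKM in TRIM28 knockdown, overlapping ARPC1B above it, and 7 at 10.7 ± 1.01 FPKM in PARP1 knockdown, overlapping ARPC5 below it. In control it ranked 5 at 40.1 ± 11.8 FPKM, overlapping ARPC5L above it and ARPC1A below it. ACTR3 was the lowest member in both knockdowns, at 7.56 ± 0.868 FPKM in TRIM28 knockdown and 3.99 ± 0.995 FPKM in PARP1 knockdown. The control libraries had ACTR3 at 15.3 ± 3.65 FPKM, overlapping ARPC1B at 14.4 ± 1.35 FPKM, which overlapped ARPC5 at 13.3 ± 0.408 FPKM. ACTR2 and ACTR3 together made up 5.79% ± 0.391 of the summed FPKM of the members in TRIM28 knockdown, 4.06% ± 0.538 in PARP1 knockdown and 14.6% ± 3.88 in control, the last with its lowest value of 10.2% in replicate 3. The length and GC trends were not removed from this share. With them removed, the log2 fold changes of ACTR2 and ACTR3 were -1.05 and -0.35 in TRIM28 knockdown and -1.23 and -0.80 in PARP1 knockdown.

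**Figure D4:**
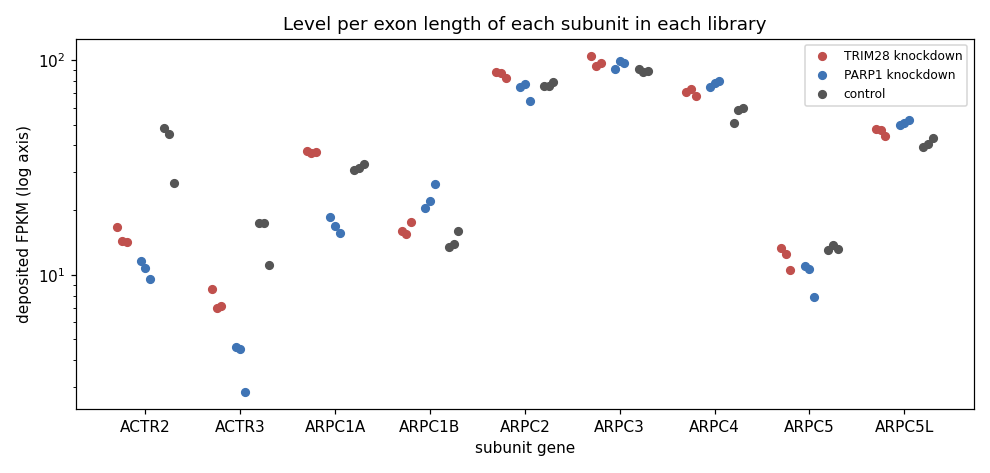
Deposited FPKM of each subunit (logarithmic vertical axis) in each library of TRIM28 knockdown, PARP1 knockdown and control. ARPC3, ARPC2 and ARPC4 lie between 50.7 and 104.7 FPKM in all libraries, and ACTR3 falls to 2.84 FPKM in a PARP1 knockdown library.

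Genes that work with or beside the complex were taken in 7 lists of 89 genes, 79 of them measured. TRIM28 knockdown had 7 of the 79 higher and 25 lower than control, with a median log2 fold change of -0.09, and PARP1 knockdown had 15 higher and 36 lower, with a median of -0.33. These are read beside the shares and medians of all tested genes given above. The count higher in TRIM28 knockdown was 1 without control replicate 1, 3 without control replicate 2, 4 without TRIM28 knockdown replicate 1 or 2, and 13 without control replicate 3 or PARP1 knockdown replicate 1. Of all tested genes 2.31%, 3.23%, 6.12%, 4.25%, 15.5% and 14.8% were higher in these 6 fits in the same order. The count lower was 12 without control replicate 1, and 14 and 16 without TRIM28 knockdown replicates 2 and 3, where 8.80%, 10.9% and 12.0% of all tested genes were lower. With the length and GC trends removed the counts were 11 higher and 17 lower in TRIM28 knockdown, beside 10.9% and 10.5% of all tested genes, with a list median of 0.01. They were 16 higher and 28 lower in PARP1 knockdown, beside 23.9% and 22.6%, with a list median of -0.17.

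Of 11 measured nucleation promoters and their WIP partners, which switch the complex on, 0 rose and 6 fell in TRIM28 knockdown, and 1 rose and 8 fell in PARP1 knockdown. Over all tested genes 10.3% rose and 17.5% fell in TRIM28 knockdown, and 27.1% rose and 32.2% fell in PARP1 knockdown. Higher in TRIM28 knockdown were 0 by edgeR, 0 by DESeq2, 1 at an unadjusted p below 0.05 and 1 by edgeR with the trends removed, where 4 were lower. The shares of all tested genes higher were 14.0% by DESeq2 and 10.9% with the trends removed, where 10.5% were lower. Counts at an unadjusted p below 0.05, here and below, have no share of all tested genes beside them. They are not read as results about a list. WIPF2, a partner of N-WASP, fell to 24.6 ± 1.49 CPM in TRIM28 knockdown and 16.2 ± 3.65 CPM in PARP1 knockdown, against 56.8 ± 9.32 CPM in control (adjusted p = 7.91e-06 and 3.97e-09). Its log2 fold change in PARP1 knockdown was -1.80, and -1.15 with the trends removed. WASF2, the WAVE2 protein, averaged 191 ± 14.0 CPM in TRIM28 knockdown, 136 ± 38.7 CPM in PARP1 knockdown and 298 ± 13.2 CPM in control, and fell in both (log2 -0.64 and -1.13, adjusted p = 0.00358 and 1.24e-06). WASL, which encodes N-WASP, fell in PARP1 knockdown (log2 -1.53, adjusted p = 9.42e-06) and in TRIM28 knockdown (log2 -0.81, adjusted p = 0.0113), the last call ending without control replicate 1 (-0.50), without TRIM28 knockdown replicate 2 (-0.70) and with the trends removed (-0.55). DBNL, an actin-binding adaptor, was the member that rose in PARP1 knockdown (log2 0.72 ± 0.14, adjusted p = 7.32e-05).

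The WAVE and WASH partners hold the promoters in their complexes. Of 12 measured, 1 rose and 4 fell in TRIM28 knockdown, and 2 rose and 6 fell in PARP1 knockdown. Over all tested genes 10.3% rose and 17.5% fell in TRIM28 knockdown, and 27.1% rose and 32.2% fell in PARP1 knockdown. After trend removal 4 were higher and 4 lower in PARP1 knockdown, beside 23.9% and 22.6% of all tested genes. WASHC2A fell in TRIM28 knockdown (log2 -1.09 ± 0.18, adjusted p = 8.23e-05) and PARP1 knockdown (log2 -1.60 ± 0.18, adjusted p = 1.03e-07). Its near-identical copy WASHC2C fell in both (log2 -1.28 and -1.96), and reads shared by the copies make each value uncertain. BRK1, the smallest WAVE subunit, averaged 247 ± 26.1 CPM in TRIM28 knockdown, 309.9 ± 50.8 CPM in PARP1 knockdown and 180.2 ± 14.7 CPM in control. Its rise in TRIM28 knockdown (log2 0.46, adjusted p = 0.0164) ended on library totals (0.30), with the trends removed (0.26) and without control replicate 1 (0.43), control replicate 2 (0.46), TRIM28 knockdown replicate 1 (0.39) or TRIM28 knockdown replicate 2 (0.47). That in PARP1 knockdown (log2 0.78, adjusted p = 3.24e-05) ended with the length trend alone removed (0.24) and held with both removed (0.49).

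Among 9 measured inhibitors and debranching factors, 1 rose and 3 fell in each knockdown. Over all tested genes 10.3% rose and 17.5% fell in TRIM28 knockdown, and 27.1% rose and 32.2% fell in PARP1 knockdown. With the trends removed 1 was lower in PARP1 knockdown, the calls of AP1AR (-0.36, adjusted p = 0.188) and ARPIN having ended. There 22.6% of all tested genes were lower. The coronin CORO1C fell to 242 ± 12.0 CPM in TRIM28 knockdown and 137 ± 29.3 CPM in PARP1 knockdown, against 415 ± 72.9 CPM in control (adjusted p = 0.00062 and 8.54e-09). Its log2 values of -0.77 and -1.59 were -0.43 and -0.92 with the trends removed. CORO1B, another coronin, rose to 134 ± 24.8 CPM in PARP1 knockdown, against 68.3 ± 12.2 CPM in control (log2 0.97, adjusted p = 5.13e-06, and 0.54 with the trends removed). In TRIM28 knockdown its level of 91.7 ± 6.49 CPM passed (log2 0.42, adjusted p = 0.0343) and no longer did on library totals (0.27), with the trends removed (0.33) or without control replicate 1 (0.36), control replicate 2 (0.38), TRIM28 knockdown replicate 2 (0.42) or TRIM28 knockdown replicate 3 (0.42). ARPIN, an inhibitor of the complex, fell in both knockdowns (log2 -0.89 and -0.93, adjusted p = 0.000968 and 0.000127), and with the trends removed it stood at -0.50 in TRIM28 knockdown, while its call in PARP1 knockdown ended (-0.17, adjusted p = 0.366).

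Upstream GTPases and adaptors had 1 of 13 higher and 2 lower in TRIM28 knockdown, and 3 higher and 5 lower in PARP1 knockdown. The shares of all tested genes were 10.3% and 17.5% in TRIM28 knockdown and 27.1% and 32.2% in PARP1 knockdown. With the trends removed the counts were 2 higher and 1 lower in TRIM28 knockdown and 2 higher and 7 lower in PARP1 knockdown. The shares were then 10.9% and 10.5% in TRIM28 knockdown and 23.9% and 22.6% in PARP1 knockdown. RAC1, the GTPase that activates WAVE, averaged 291 ± 13.6 CPM in TRIM28 knockdown, 131 ± 15.7 CPM in PARP1 knockdown and 309 ± 8.08 CPM in control. It fell in PARP1 knockdown (log2 -1.24 ± 0.13, adjusted p = 2.29e-08, and -0.43 with the trends removed, adjusted p = 0.00215), and TRIM28 knockdown was higher than PARP1 knockdown (log2 1.15 ± 0.13, adjusted p = 1.79e-06). RHOG and RAC3 rose in PARP1 knockdown at 0.77 and 1.16, and with the trends removed stood at -0.21 and -0.06.

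Formins and other nucleators make unbranched filaments without the complex. Of 14 measured, 0 rose and 3 fell in TRIM28 knockdown, and 2 rose and 6 fell in PARP1 knockdown. Over all tested genes 10.3% rose and 17.5% fell in TRIM28 knockdown, and 27.1% rose and 32.2% fell in PARP1 knockdown. The number higher in TRIM28 knockdown was 0 by edgeR, by DESeq2 and at an unadjusted p below 0.05, and 2 by edgeR with the trends removed. In PARP1 knockdown 3 were then higher and 4 lower, beside 23.9% and 22.6% of all tested genes. In TRIM28 knockdown 14.0% of all tested genes were higher by DESeq2 and 10.9% with the trends removed. The formin DIAPH1 fell to 44.1 ± 0.265 CPM in TRIM28 knockdown and 21.7 ± 4.19 CPM in PARP1 knockdown, against 128 ± 25.8 CPM in control (log2 -1.54 and -2.56, adjusted p = 5.51e-07 and 2.64e-11). FHOD3, another formin, fell in both (log2 -1.04 and -1.56, adjusted p = 5.68e-05 and 4.04e-08). DIAPH1 was higher in TRIM28 knockdown than in PARP1 knockdown (log2 1.02 ± 0.16, adjusted p = 0.00021).

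Actin, monomer-binding and capping genes were split, with 4 of 13 higher and 5 lower in each knockdown. The shares of all tested genes were 10.3% and 17.5% in TRIM28 knockdown and 27.1% and 32.2% in PARP1 knockdown. After trend removal 3 were higher and 3 lower in TRIM28 knockdown, beside 10.9% and 10.5% of all tested genes. PFN1 (profilin) and TMSB10, which bind actin monomers, rose in TRIM28 knockdown by 0.48 and 0.56 and in PARP1 knockdown by 0.83 and 0.93 on the log2 scale. With the trends removed these were 0.04 and 0.15 in TRIM28 knockdown and -0.10 and 0.20 in PARP1 knockdown, and none passed. The call of PFN1 in TRIM28 knockdown also ended without control replicate 1 (0.44). CAP2, a cyclase-associated protein, fell in both knockdowns (log2 -1.04 and -1.70, adjusted p = 0.000369 and 2.04e-07). CAP1 fell in PARP1 knockdown (log2 -1.19 ± 0.15, adjusted p = 3.66e-07). Among 7 actin-related proteins outside the complex, most of them chromatin remodeller or dynactin subunits, 0 rose and 2 fell in TRIM28 knockdown, and 2 rose and 3 fell in PARP1 knockdown. These counts are read beside the shares of all tested genes given for the list before. The number higher in TRIM28 knockdown was 0 by edgeR, against 2 by DESeq2 and 2 at an unadjusted p below 0.05. By DESeq2 14.0% of all tested genes were higher. Removal of the trends left 1 higher in TRIM28 knockdown and ended both calls of lower genes, those of ACTR8 and ACTR6 (-0.44, adjusted p = 0.0954), and 2 were then lower in PARP1 knockdown. There 10.9% of all tested genes were higher in TRIM28 knockdown and 22.6% lower in PARP1 knockdown. ACTR8, of the INO80 remodeller, fell in PARP1 knockdown (log2 -1.36 ± 0.16, adjusted p = 8.39e-08) and in TRIM28 knockdown (log2 -0.45 ± 0.15, adjusted p = 0.0253), the last call ending with the trends removed (-0.26) and without control replicate 1 (-0.38), control replicate 2 (-0.40), TRIM28 knockdown replicate 2 (-0.40) or TRIM28 knockdown replicate 3 (-0.41).

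**Figure D5:**
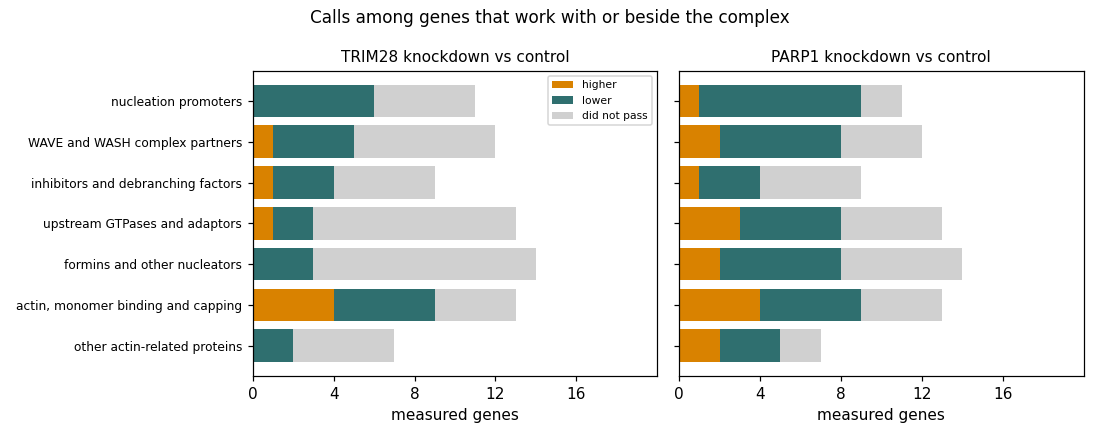
Number of measured genes of each actin list (horizontal axis) that were higher, lower or did not pass in TRIM28 knockdown (left) and PARP1 knockdown (right) against control. Nucleation promoters have 6 lower in TRIM28 knockdown and 8 lower in PARP1 knockdown, where 17.5% and 32.2% of all tested genes were lower.

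Between the knockdowns, TRIM28 knockdown had 22 of the 79 list genes higher than PARP1 knockdown and 8 lower. Of all tested genes 13.2% were higher and 11.9% lower. With the length and GC trends removed the counts were 12 and 2, where 7.04% and 7.59% of all tested genes were. The count higher was 10, 14 and 11 without TRIM28 knockdown replicates 1, 2 and 3, and 11 and 10 without PARP1 knockdown replicates 2 and 3, where 7.12%, 9.25%, 8.14%, 8.37% and 7.25% of all tested genes were higher in the same order. The count lower was 0, 3 and 4 without the same TRIM28 knockdown libraries, 3 and 2 without the same PARP1 knockdown libraries and 5 without control replicate 2, where 4.78%, 8.30%, 8.07%, 7.03%, 5.04% and 10.8% of all tested genes were lower. WHAMM, a nucleation promoter at internal membranes, averaged 12.1 ± 2.29 CPM in TRIM28 knockdown and 5.96 ± 2.41 CPM in PARP1 knockdown (log2 1.00 ± 0.23, adjusted p = 0.00293).

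Over the 9 libraries, the genes whose profile was most like that of ARPC1A were MVD, PRR3, RHOB, TSC22D4 and GATC, with root mean square differences of centred log2 CPM of 0.127, 0.146, 0.149, 0.151 and 0.153, among 8462 genes with a mean of at least 1 FPKM. These genes were picked by the ARPC1A profile, so the order of the groups in them follows from that choice. The length and GC trends were not removed for this measure. MVD, an enzyme of the mevalonate pathway, averaged 42.2 CPM in TRIM28 knockdown, 19.0 CPM in PARP1 knockdown and 32.1 CPM in control. RHOB, a small GTPase that acts on actin and endosomes, averaged 345 CPM in TRIM28 knockdown, 202 CPM in PARP1 knockdown and 256 CPM in control. No other subunit was close to ARPC1A by this measure. The nearest, ARPC5, ranked 1185 with a difference of 0.356, and the farthest, ARPC1B, ranked 7694 with 0.768. A gene that does not change differs from ARPC1A by about the spread of ARPC1A itself. The place of ARPC5, with log2 fold changes of 0.02 and -0.12, is therefore not read as a shared direction.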

How the data were processed

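Messenger RNA of 786-O cells was sequenced in 9 libraries, 3 per group. The submitters' processing notes name STAR 2.7.9a and featureCounts 2.0.1 among the tools and GRCh38 as the build. Neither the annotation release nor whether counting used strand is stated in the sources used here. Deposited by the authors were whole-number read counts, not normalized, and FPKM values for each gene, per the file headers. The table's coordinates and exon lengths are theirs.

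Counts were tested with edgeR 4.0.16 (R 4.3.3): TMM factors, its low-count filter, 1 fit of 9 libraries in 3 groups, 6 residual degrees of freedom, biological coefficient of variation 0.149, quasi-likelihood tests, and Benjamini-Hochberg adjustment over 13562 genes. "Rose", "fell", "higher" or "lower" of a tested gene means an adjusted p below 0.05. Length and GC trends were removed by lowess (span 0.3) as offsets, with GC from GENCODE v29 for 98.7% of tested genes. Other alternatives were DESeq2 1.42.0 and its size factors, library totals, no filter, limma 3.58.1 on log2(FPKM + 1) and log2(FPKM + 0.1) with a mean of at least 0.5 FPKM or none, leaving out each library in turn, fitting the compared groups alone and a block on replicate number. Methods were tested on simulated data, and no pair of replicates was a duplicate. Likeness used log2 CPM with a prior count of 2. The members and lists were chosen with earlier results of these data known. All members, the ACTR3 paralogues, both targets, up to 3 called genes per list, direction and comparison by adjusted p, the 5 genes most like ARPC1A and genes overlapping a member could be named, and not all are.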

Additional observations from a re-analysis of the deposited data

How the results depend on the processing

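On library totals without TMM factors the median of all genes moved to -0.18 in TRIM28 knockdown, -0.39 in PARP1 knockdown and 0.20 between them, and the deposited FPKM share that scaling. The cause of each change below was not tested. For TRIM28 knockdown against control, the count of other subunits higher (1) became 3 with DESeq2 size factors, 4 by DESeq2, 0 by limma without an FPKM filter, 5 with the compared groups alone, 4 with the replicate block, 3 with the length trend removed, 3 with length and GC trends removed and 3 with the block and both, and 0 to 5 on leaving out a library. Of the genes tested in each fit 12.3%, 14.0%, 0.51%, 15.8%, 12.4%, 11.5%, 10.9% and 10.9% were higher in the same order. On leaving out a library 2.31% to 15.5% were. The count lower (2) became 1 by limma without a filter, with both trends removed and with the block and both. In these fits 3.47%, 10.5% and 10.3% of the genes tested were lower. Between the knockdowns the count higher (1) became 0 by limma without a filter, and that lower (1) became 3 by DESeq2, 0 by limma without a filter and 1 to 3 on leaving out a library. Of the genes tested 0.182% were higher by limma without a filter. The shares lower were 14.3%, 0.0521% and 4.78% to 16.1% in the same order. In PARP1 knockdown no alternative moved the counts of 4 and 2 by over 1.5 times, but the genes called changed. With both trends removed ARPC2 and ARPC5 joined those higher, where 23.9% of all tested genes were higher. On library totals ARPC3 (adjusted p = 0.43) left those higher and ARPC5 (adjusted p = 0.0121) joined those lower. Of all tested genes 14.9% were higher and 42.8% lower on library totals.

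For the actin lists in TRIM28 knockdown, the count higher (7) became 4 on library totals, 13 by DESeq2, 4 by limma with either pseudocount, 0 by limma without a filter, 15 with the compared groups alone, 11 with both trends removed and 1 to 13 on leaving out a library. Of the genes tested in each fit 3.34%, 14.0%, 5.01% or 4.61% by pseudocount, 0.51%, 15.8% and 10.9% were higher in the same order. On leaving out a library 2.31% to 15.5% were. The count lower (25) became 10 by limma without a filter, 16 with the block and both trends removed and 12 to 27 on leaving out a library. In these fits 3.47%, 10.3% and 8.80% to 20.5% of the genes tested were lower. Between the knockdowns the count higher (22) became 1 by limma without a filter, 13 without the length trend, 12 without both, 11 with the block and without both, and 10 to 21 on leaving out a library. In these fits 0.182%, 9.63%, 7.04%, 7.60% and 7.12% to 17.7% of the genes tested were higher. The count lower (8) became 0 on library totals, 5 with no low-count filter, 1 by limma with either pseudocount, 0 by limma without a filter, 5 with the compared groups alone, 5 without the length trend, 2 without both, 2 with the block and without both, and 0 to 11 on leaving out a library. Of the genes tested 4.72%, 5.03%, 6.23% or 6.29% by pseudocount, 0.0521%, 11.6%, 12.1%, 7.59% and 7.74% were lower in the same order. On leaving out a library 4.78% to 16.1% were.

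Turns of direction included the following. ACTR3B in PARP1 knockdown was 0.12 without both trends. ACTR3C in TRIM28 knockdown was -0.09 on library totals, and the TRIM28 transcript in PARP1 knockdown was -0.01 on library totals and -0.22 without both trends. ARPC2 in PARP1 knockdown was -0.08 on library totals and -0.09 in each limma fit, and between the knockdowns -0.07 without the length trend, -0.27 without both trends and -0.26 with the block as well. ARPC3 between the knockdowns was 0.05 on library totals and in each limma fit. ARPC5 in TRIM28 knockdown was -0.14 on library totals, -0.13, -0.14 and -0.13 in the limma fits and -0.04 without TRIM28 knockdown replicate 1. ARPC5 in PARP1 knockdown was 0.42 without the length trend and 0.72 without both, with or without the block, and between the knockdowns -0.08, -0.22 and -0.22. Without both trends, with or without the block, PARP1 knockdown values were -0.21 for RHOG, -0.06 and -0.05 for RAC3, -0.10 for PFN1 and 0.03 for ACTL6A, and RHOG between the knockdowns was 0.03. Same-numbered libraries had correlations of their deviations between -0.08 and 0.14, and not every library correlated most with its own number, so the replicate block pairs only numbers.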
